A study of Mus musculus with 21 samples.

Results

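The 43 genes described here encode the core of glucose use in the mouse heart: glucose transport, glycolysis, lactate handling, entry of pyruvate into the mitochondrion, glycogen storage and the pentose phosphate pathway. They were chosen by symbol from the 56691 genes of the deposited table. Messenger RNA was sequenced from hearts of mice in 4 groups: Control mice without a tumor that received normal saline (5 libraries), mice without a tumor that received doxorubicin (DOX, 5 libraries), tumor-bearing mice that received normal saline (Tb, 6 libraries), and tumor-bearing mice that received doxorubicin (Tb-DOX, 5 libraries). Doxorubicin, an anthracycline that intercalates into DNA and poisons topoisomerase II, is given against many cancers and can injure heart muscle. Here it was injected into the peritoneum at 5 mg/kg once a week for 3 weeks. The tumors came from 4T1 murine breast cancer cells placed under the skin. The design asked how the heart responds to doxorubicin with and without a tumor. The labels name the 4T-1 cell line for every library, whereas the study's methods describe heart tissue. Strain, sex and age were not given in the sources used here, and the labels do not say that the libraries of a group came from separate animals, so p-values measure the spread between these libraries.

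The adult heart burns mainly fatty acids and takes the rest of its fuel from glucose and lactate. Glucose enters through transporters, is trapped by hexokinase, and is then broken down to pyruvate, stored as glycogen, or diverted into the pentose phosphate pathway, whose oxidative arm makes NADPH and whose non-oxidative arm interconverts sugars. Most steps have several isoforms, of which 1 is typical of muscle and the others of liver, brain or blood cells.

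Each library held 13521200 to 18601445 reads counted on genes. The summed FPKM (fragments per kilobase of exon, scaled to the reads counted in the library) of 10 cardiomyocyte markers was 19470 to 20260 in Control, apart from replicate 3 at 29050, and 22420 to 25950 in DOX, 17640 to 20550 in Tb and 22060 to 25090 in Tb-DOX. The sum of 10 neutrophil markers was 1.53 to 12.4 in Control, 10.47 to 94.23 in DOX, 835.1 to 7812 in Tb and 1249 to 6182 in Tb-DOX. Libraries correlated with the rest of their group at 0.96 to 0.981, except Tb replicate 5 at 0.930. Within Control, DOX and Tb the lowest correlation belonged to Control replicate 3 (0.976), DOX replicate 4 (0.961) and Tb replicate 5, and counts are given below with and without these 3 libraries together, whereas Tb-DOX replicate 4, the lowest of its group at 0.975, was kept. DOX replicate 4 also had a summed level of 10 T cell and thymocyte markers of 67.12 FPKM, against 1.24 to 3.71 in the other DOX libraries.

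In all, 42 of the 43 members reached the minimum mean level of 0.5 FPKM, as did 13990 genes. The exception was Aldoc, the aldolase of brain, at 0 to 8 counts per library. The members were abundant: 38 of the 42 lay above the median of the genes tested and 22 lay in the top 10%, and the median member had a mean level of 32.77 FPKM against 3.62 FPKM for all genes tested. Together they took 1.324% to 1.711% of the counts of a Control library, 1.282% to 1.5% in DOX, 1.372% to 1.471% in Tb and 1.489% to 1.584% in Tb-DOX, and of these ranges that of Tb-DOX lay wholly above that of Tb. Ldhb, Eno3 and Aldoa led, with group means of 784 to 999 FPKM for Ldhb.

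Changes were tested with edgeR's quasi-likelihood fit over all 13990 genes, with Benjamini-Hochberg adjustment, and a gene is said to have risen or fallen where its adjusted p was under 0.05. Folds come from counts scaled by TMM, a correction for library composition, whereas FPKM values are scaled to library totals alone. TMM factors were 0.881 to 1.009 in DOX and 0.973 to 1.092 in Control. With library totals in place of TMM, the median change over all genes tested moved (log2) from 0.002 to -0.136 for DOX against Control, to 0.144 for the difference between the DOX responses and to 0.18 for Tb-DOX against DOX. A member with equal mean FPKM in both groups therefore had a fitted change slightly above 0 in DOX. In bulk tissue, fewer cells of a type and less RNA per cell cannot be told apart.

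Doxorubicin without a tumor changed about as large a share of these genes as of all genes, and the changes ran both ways. In DOX against Control, 15 of 42 members passed, 11 higher and 4 lower, or 35.7%, beside 36.2% of all genes tested (18% higher and 18.2% lower). Pfkfb3, Rpia and Pfkl also passed a log2 change of at least 1, a rule met by 9.95% of all genes. The median log2 fold change of the members was 0.045 against 0.002 for all genes. Transporters, hexokinase 1, glucose phosphate isomerase, heart-type lactate dehydrogenase and the pyruvate dehydrogenase subunit Pdha1 were among those that rose, and liver-type phosphofructokinase, brain-type glycogen phosphorylase and a pair of non-oxidative pentose phosphate enzymes fell. The direction of the count depended on the scaling: with library totals only, 13 members passed, 4 higher and 9 lower, while the share of higher calls over all genes went from 49.8% to 28.7%. Without the 3 libraries that stood apart, 19 passed, 14 higher and 5 lower: Aldoa, Tpi1, Gys1 and Pfkp joined as higher and Pfkfb2 as lower, and Gapdh was lost.

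Markers of several cell types moved in the same comparisons. In DOX against Control 5 of 10 cardiomyocyte and 6 of 10 neutrophil markers rose, and 7 of 10 macrophage markers, all 5 erythroid markers tested and 5 of 8 fibroblast markers fell, while 1 fibroblast marker rose. The summed level of the lists was 136.7 to 166.1 FPKM in Control and 57.83 to 97.87 in DOX for macrophages, 251.7 to 1094 and 4.77 to 145.6 for erythroid cells, and 231.6 to 294.1 and 142.7 to 245.8 for fibroblasts. Atrial cardiomyocyte sums were 111.7 to 371.6 FPKM in Control and 387.1 to 743.3 in DOX. Skeletal muscle sums were 28.29 to 61.59 and 21.62 to 27.33, and adipocyte sums 141.5 to 209.6 and 100 to 134.2. The atrial, skeletal muscle and adipocyte sums overlapped between Tb-DOX and Tb. In Tb-DOX against Tb 3 cardiomyocyte markers rose, and 2 macrophage, 5 erythroid and 4 fibroblast markers fell, with sums of 187.6 to 264.6 FPKM in Tb and 114.7 to 307.1 in Tb-DOX for macrophages, 527.1 to 975.6 and 2.99 to 39.97 for erythroid cells, and 216.1 to 240.8 and 144.8 to 221.1 for fibroblasts. The cardiomyocyte sums of Tb-DOX all lay above those of Tb. No marker of these lists was at 0 in all libraries, and their part in the members' changes was not tested.

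In tumor-bearing mice the same treatment changed 4 of 42 members, 3 higher and 1 lower, or 9.52%, beside 4.72% of all genes (2.18% higher and 2.54% lower). None of the 4 reached a log2 change of at least 1, a rule met by 1.11% of all genes. At an unadjusted p under 0.05 the count was 13, DESeq2 called 6 and sample weights in voom 13. The count was 1 without Tb-DOX replicate 5, 2 without Tb-DOX replicate 1 or 2, 6 without Tb replicate 5 and 1 with no filter on low values. Without the 3 libraries that stood apart, 7 passed, 6 higher and 1 lower, Gapdh among them. Gpi1 and Ldhb rose in both comparisons. These share no library, but they come from 1 fit with a shared estimate of spread, so the calls are not independent. The difference between the 2 responses was tested as an interaction, and 1 member passed (Pfkfb3, lower), or 2.38%, beside 8.94% of all genes (3.95% higher, 5.0% lower, and 3.89% also at a log2 change of at least 1). At an unadjusted p under 0.05, 7 members differed. With library totals only, 2 members passed and the share of higher calls over all genes went from 44.1% to 76.5%. For the other 41 members, a change past the test in 1 state and not in the other is not shown to differ between them.

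**Figure D1:**
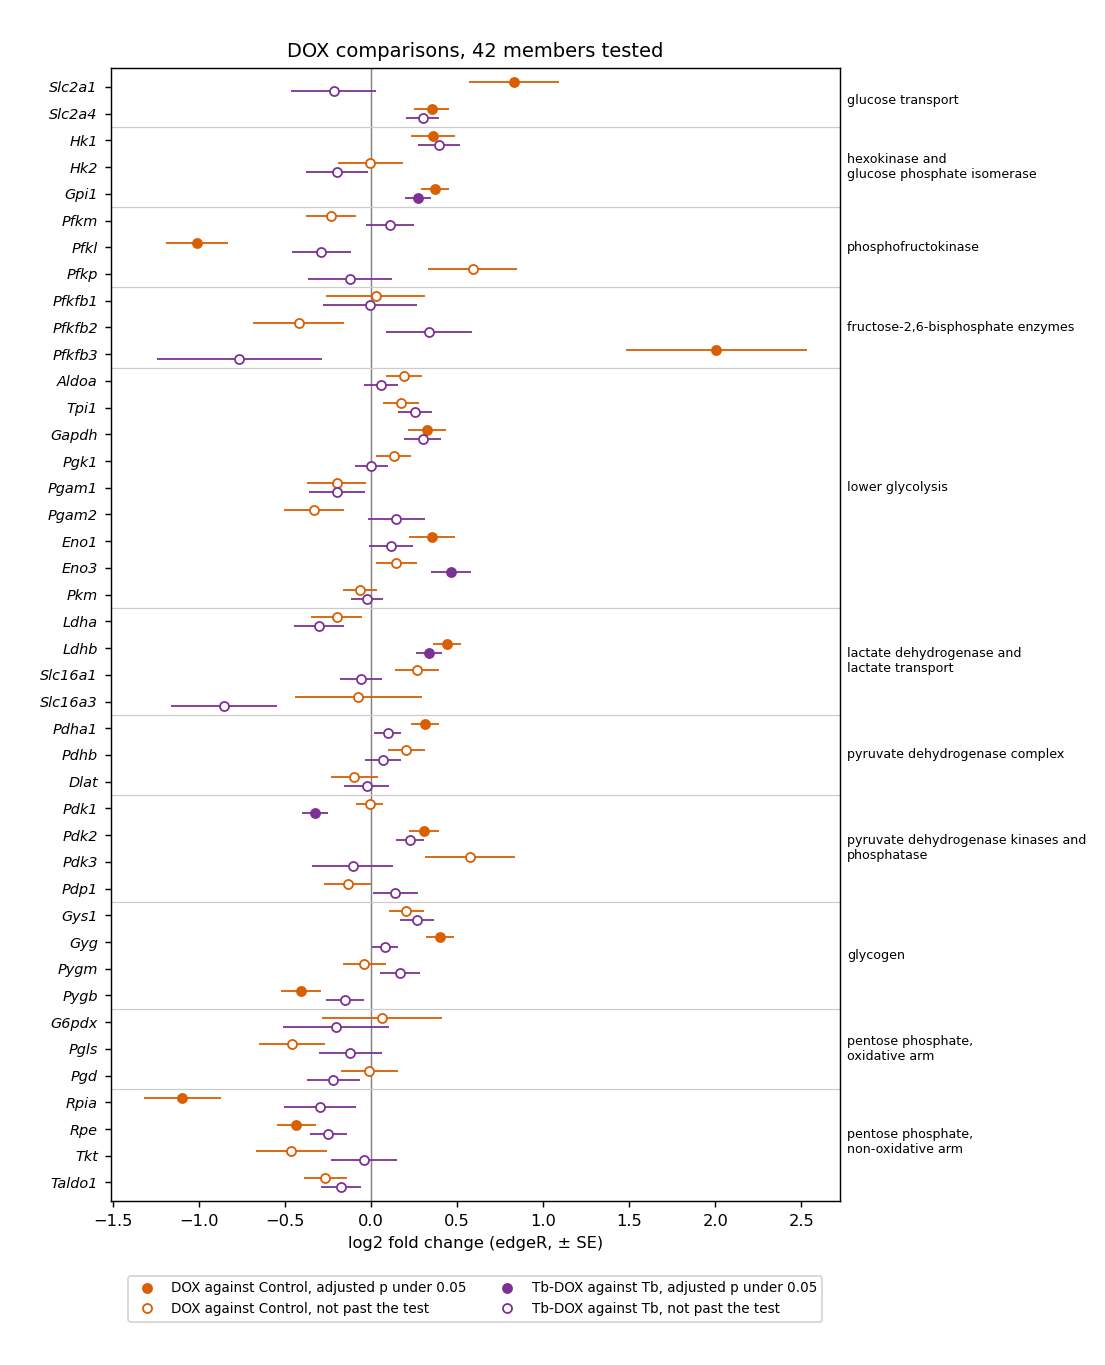
Log2 fold change (edgeR, ± SE) of the 42 members tested, by role, for DOX against Control and for Tb-DOX against Tb, with filled points for adjusted p under 0.05. Pfkfb3 lies at 2.01 without a tumor and at -0.77 with one, and Rpia and Pfkl lie below -1 without a tumor.

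Both glucose transporters rose in DOX against Control, where 36.2% of all genes passed, and neither passed in Tb-DOX against Tb. Slc2a4 encodes GLUT4, the insulin-responsive transporter of heart and muscle, and was by far the more abundant, with 85.34% to 97.21% of the summed FPKM of the pair in every library. Slc2a1 encodes GLUT1, the basal transporter (chromosome 4, 118965908 to 118995180, plus strand, GRCm39). Its FPKM was 2.78, 2.48, 3.25, 2.08 and 2.55 in Control replicates 1 to 5 and 3.64, 4.66, 4.73, 4.63 and 3.56 in DOX. All DOX libraries lay above all Control libraries, and Slc2a1 rose by 0.83 ± 0.26 (log2, SE; adjusted p = 0.0168, edgeR). Slc2a4 rose by 0.35 ± 0.10 (adjusted p = 0.01), from 72.34 to 88.94 FPKM in Control to 75.31 to 105.2 FPKM in DOX, with overlap. Scaled to library totals only, Slc2a4 changed by 0.21 and did not pass (adjusted p = 0.123). In Tb it was at 49.31 to 69.74 FPKM and in Tb-DOX at 68.05 to 88.44, which overlapped, with a change of 0.30 ± 0.10 that did not pass (adjusted p = 0.0782) and an interaction of -0.05 ± 0.14 (adjusted p = 0.831). The change in Tb-DOX against Tb did pass with DESeq2 (0.29, adjusted p = 0.0483), with sample weights in voom (0.28, adjusted p = 0.011) and without Tb-DOX replicate 4 (0.39, adjusted p = 0.0199). In Tb the level of Slc2a1 was 2.04 at the lowest, 3.985 at the median and 8.47 FPKM at the highest, and in Tb-DOX it was 3.6, 5.11, 3.82, 4.95 and 3.96. These overlapped, and Slc2a1 changed by -0.22 ± 0.25 in Tb-DOX against Tb (adjusted p = 0.67), with an interaction of -1.05 ± 0.36 that did not pass (adjusted p = 0.0657), though it did without Tb replicate 1 (adjusted p = 0.0184) and with DESeq2 (-1.07, adjusted p = 0.0327).

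Hexokinase phosphorylates glucose, and glucose phosphate isomerase turns the product into fructose 6-phosphate. Gpi1, the isomerase, was at 54.37, 50.94, 68.41, 51.68 and 56.15 FPKM in Control, at 57.22, 63.64, 73.26, 66.32 and 69.71 in DOX, from 53.63 to 72.24 with a median of 59.975 in Tb, and at 69.39, 75.38, 74.23, 82.47 and 73.56 in Tb-DOX. Each doxorubicin group was higher on average and touched its saline group in range. Gpi1 rose by 0.37 ± 0.08 without a tumor (adjusted p = 0.00117) and by 0.27 ± 0.08 with one (adjusted p = 0.0411). The second call was not firm: in 13 of the 21 leave-one-out fits, each without 1 library, its adjusted p was 0.0512 to 0.0971, those without Control replicate 1, 4 or 5, DOX replicate 2, any of Tb replicates 1 to 4 or any Tb-DOX replicate. Scaled to library totals only, Gpi1 did not pass without a tumor (0.23, adjusted p = 0.0636) or with one (0.285, adjusted p = 0.0842).

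Hk1, the widely expressed hexokinase bound to mitochondria, rose by 0.36 ± 0.13 in DOX against Control (adjusted p = 0.0308) and was at 0.40 ± 0.12 in Tb-DOX against Tb (adjusted p = 0.063). Its call in DOX was lost, with an adjusted p of 0.0631 to 0.0913, without Control replicate 2 or 4 or DOX replicate 1, 2 or 5, and with library totals only. In Tb-DOX against Tb it passed with DESeq2 (adjusted p = 0.0454), with sample weights in voom (0.51, adjusted p = 0.000286), with a filter at a mean of 5 FPKM (adjusted p = 0.0331), without DOX replicate 3 or Tb replicate 5 or 6 (adjusted p = 0.0216 to 0.0307) and without the 3 libraries together (0.46, adjusted p = 0.0178). Hk2, the insulin-regulated hexokinase of muscle, changed by -0.01 ± 0.19 and -0.20 ± 0.18 in the same comparisons. By FPKM, Hk2 took 72.32% to 76.51% of the pair in Control, 58.16% to 81.48% in DOX, 59.99% to 76.95% in Tb and 58.04% to 66.53% in Tb-DOX, with overlap in each of the 4 comparisons of groups.

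Phosphofructokinase makes the committed step of glycolysis. Of its 3 isoforms Pfkl fell in DOX against Control, and the others did not pass. Pfkm, the muscle form, held 87.03% to 93.93% of the summed FPKM of the 3 in every library, and changed by -0.23 ± 0.14 in DOX against Control without passing (adjusted p = 0.219). Pfkl, the liver form (chromosome 10, 77822781 to 77845917, minus strand, GRCm39), was at 13.22, 11.73, 19.84, 12.82 and 12.81 FPKM in Control and at 8.07, 7.15, 3.57, 4.71 and 7.67 in DOX. The highest DOX library was below the lowest Control library, and Pfkl fell by 1.01 on the log2 scale (SE 0.18, adjusted p = 0.000233). Control replicate 3 was the highest, and without it, DOX replicate 4 and Tb replicate 5 the change was -0.82 ± 0.19 (adjusted p = 0.00188).

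In Tb, Pfkl was at 10.63 to 13.56 FPKM, with a median of 12.03, and in Tb-DOX at 9.58, 11.56, 9.89, 10.03 and 8.69. These ranges overlapped, and the change was -0.29 ± 0.17 (adjusted p = 0.355). The interaction, 0.73 ± 0.25, did not pass (adjusted p = 0.0642), though it did without DOX replicate 1 (0.84, adjusted p = 0.0374) or DOX replicate 5 (0.80, adjusted p = 0.0449). It also passed with DESeq2 (0.71, adjusted p = 0.044), with library totals only (0.90, adjusted p = 0.0289), with limma on log2(FPKM + 0.1) or log2(FPKM + 1) (adjusted p = 0.0343 and 0.0328), and with a filter at a mean of 5 FPKM (0.78, adjusted p = 0.0493). Pfkp, the platelet form, was at 4.06 to 5.54 FPKM in Control and 5.68 to 7.95 in DOX, without overlap, yet its change of 0.59 ± 0.26 did not pass (adjusted p = 0.0763). Its spread was widened by Tb replicate 5, at 14.18 FPKM against 4.38 to 6.62 in the other Tb libraries, and without that library Pfkp passed (0.60 ± 0.12, adjusted p = 0.000378).

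The makeup of phosphofructokinase RNA, which does not depend on how libraries are scaled, separated the groups in both states. The share of Pfkl by FPKM was 4.857% to 6.298% in Control against 2.646% to 3.791% in DOX, and 4.819% to 5.555% in Tb against 3.441% to 4.608% in Tb-DOX. The difference in mean share was -2.308 and -1.186 percentage points. The share of Pfkp separated only DOX from Control among the comparisons made, at 2.826% to 4.466% against 1.637% to 2.338%. These shares are descriptions with no test.

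The bifunctional enzymes of the PFKFB family make and remove fructose 2,6-bisphosphate, the main activator of phosphofructokinase. Pfkfb3, an inducible form that mostly makes the activator (chromosome 2, 11476244 to 11558888, minus strand, GRCm39), showed the largest fitted rise of any member in DOX against Control and the only member response whose difference between the tumor states passed the test. Its FPKM was 1.57, 1.21, 1.34, 1.29 and 0.94 in Control and 2.54, 2.97, 8.18, 6.93 and 2.94 in DOX. Every DOX library exceeded every Control library, a rise of 2.01 ± 0.52 or 4.02-fold (adjusted p = 0.00519). The rise was 1.79 ± 0.35 without the 3 libraries that stood apart (adjusted p = 0.000594).

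In the tumor-bearing hearts Pfkfb3 was at 1.86 FPKM at the lowest, 3.405 at the median and 17.9 at the highest in Tb, and at 3.6, 4.2, 2.59, 5.24 and 1.96 in Tb-DOX. The Tb-DOX libraries lay inside the range of Tb, and the change of -0.77 ± 0.48 did not pass (adjusted p = 0.386). The interaction was -2.77 ± 0.71 (adjusted p = 0.0244). The value of 17.9 belonged to Tb replicate 5, and the other Tb libraries reached 5.28. Without that library the interaction was -1.85 (adjusted p = 0.0129) and the change in Tb-DOX against Tb was 0.17, and without the 3 libraries together the interaction was -1.62 ± 0.45 (adjusted p = 0.0376). With limma on log2(FPKM + 0.1) it was -1.93 and did not pass (adjusted p = 0.0637). Pfkfb2, the heart form, was the most abundant of the family in most libraries and changed by -0.42 ± 0.26 in DOX against Control (adjusted p = 0.219). DOX replicate 4 was at 21.44 FPKM and the other DOX libraries at 7.12 to 13, and without it Pfkfb2 passed (-0.72 ± 0.24, adjusted p = 0.0262), as it did without the 3 libraries together (-0.80 ± 0.17, adjusted p = 0.00119). In the latter fit its interaction also passed (0.98 ± 0.23, adjusted p = 0.0171), against 0.76 ± 0.36 with all libraries (adjusted p = 0.172). By FPKM, Pfkfb3 made up 3.302% to 5.945% of the family in Control, 10.92% to 34.94% in DOX, 7.681% to 66.72% in Tb and 7.436% to 21.84% in Tb-DOX.

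The letters ACGTG, the core of the site bound by hypoxia-inducible factors, were searched on either strand of the promoters. RefSeq promoters (GRCm38.p6, 250 bases before to 50 after a start) matched 41 of the 43 members, at 61 starts. At least 1 promoter held ACGTG in 22 of the 41 members, and in 5 of the 8 members that rose in Tb against Control, described further on. The share of all genes with such a promoter was not counted, so these counts by gene have no background and were not tested. Counted by window, ACGTG was present in 26 of the 61 windows (42.6%) and in 19.6% of all 32851 windows of 300 bases, and the median GC content was 60.7% against 52.7%. The E-box CACGTG, which contains ACGTG, was in 11.5% of member windows and 7.15% of all, and TGACNNNGC, the core of the antioxidant element, in 9.84% and 12.4%. These matches are descriptions of letters, and no binding was measured. The 250 bases before the starts of 3 members that rose in Tb against Control are shown because Slc2a1 and Pfkfb3 also rose with doxorubicin and Slc16a3 rose most with the tumor. All of these starts hold ACGTG, and the risen members without it are not shown. Capitals mark ACGTG on either strand.
Pfkfb3, first start (chr2:11553930-11554179, minus strand): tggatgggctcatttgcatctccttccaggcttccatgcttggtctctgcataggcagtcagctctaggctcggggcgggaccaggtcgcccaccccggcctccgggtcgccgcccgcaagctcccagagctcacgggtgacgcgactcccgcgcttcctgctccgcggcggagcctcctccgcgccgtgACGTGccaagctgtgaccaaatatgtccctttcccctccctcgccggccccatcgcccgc
Pfkfb3, second start (chr2:11502091-11502340, minus strand): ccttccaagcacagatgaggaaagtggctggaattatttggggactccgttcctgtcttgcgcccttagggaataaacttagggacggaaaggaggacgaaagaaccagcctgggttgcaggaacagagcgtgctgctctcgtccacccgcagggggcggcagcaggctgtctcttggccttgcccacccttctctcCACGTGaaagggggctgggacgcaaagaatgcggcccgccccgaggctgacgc
Slc2a1 (chr4:119108495-119108744, plus strand): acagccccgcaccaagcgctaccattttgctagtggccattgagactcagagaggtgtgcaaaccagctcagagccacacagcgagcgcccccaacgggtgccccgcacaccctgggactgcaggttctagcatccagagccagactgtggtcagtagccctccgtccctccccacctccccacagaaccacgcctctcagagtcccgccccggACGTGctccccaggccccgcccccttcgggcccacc
Slc16a3 (chr11:120948817-120949066, plus strand): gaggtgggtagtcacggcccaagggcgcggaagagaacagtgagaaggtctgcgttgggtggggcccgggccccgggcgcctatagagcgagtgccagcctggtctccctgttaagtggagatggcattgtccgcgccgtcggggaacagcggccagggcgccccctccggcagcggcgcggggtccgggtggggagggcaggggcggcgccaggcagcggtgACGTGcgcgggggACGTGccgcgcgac

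**Figure D2:**
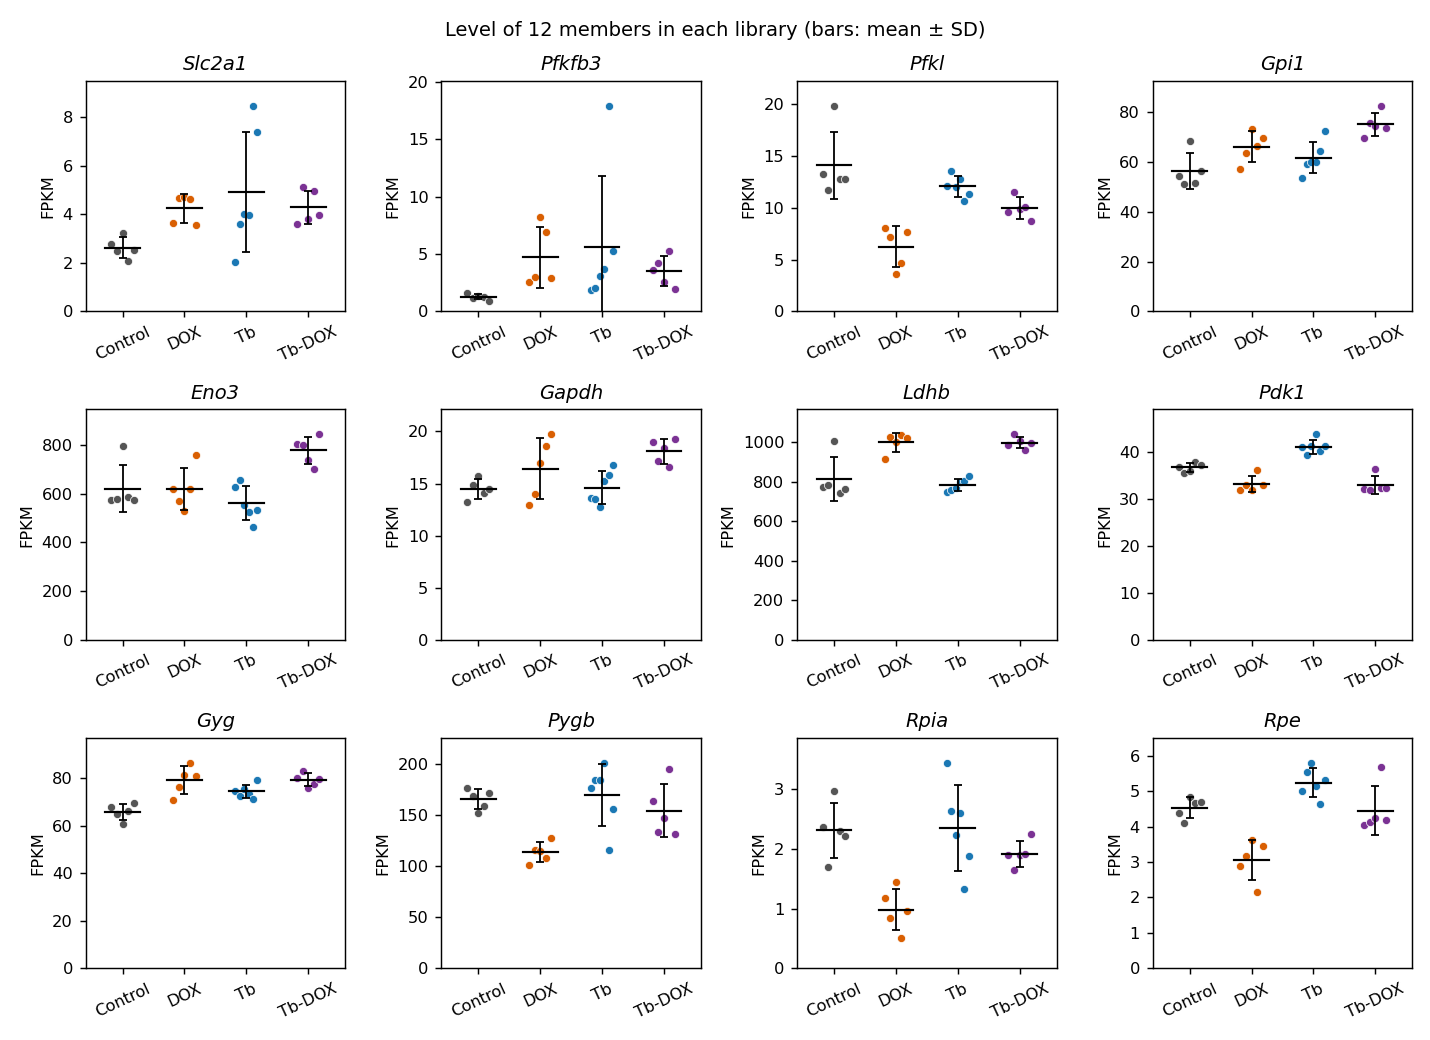
FPKM of 12 members in each library, with a horizontal bar for the group mean and error bars for the SD (Control, DOX and Tb-DOX 5 libraries, Tb 6; the lower bar of Pfkfb3 in Tb is cut at 0). Pfkl, Pygb, Rpia and Rpe are lowest in DOX, and 1 Tb library stands at 17.9 for Pfkfb3.

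The lower stretch of glycolysis, runs from aldolase to pyruvate kinase. Of its 9 members tested, 2 (22.2%) rose in DOX against Control and 1 (11.1%) rose in Tb-DOX against Tb, beside 36.2% and 4.72% of all genes that passed in these comparisons. Eno3, the enolase of muscle, held 96.25% to 98.45% of the enolase pair. Its FPKM was 572.79, 578.27, 794.74, 584.84 and 575.31 in Control, 619.22, 568.5, 528.62, 620.91 and 759.86 in DOX, 465.54 to 658.07 with a median of 545.175 in Tb, and 804.31, 800.03, 740.47, 700.6 and 844.57 in Tb-DOX. All Tb-DOX libraries lay above all Tb libraries, whereas DOX and Control overlapped. Eno3 rose by 0.46 ± 0.11 with doxorubicin in tumor-bearing mice (adjusted p = 0.0236) and changed by 0.15 ± 0.12 without a tumor (adjusted p = 0.355), and the interaction of 0.32 ± 0.17 did not pass (adjusted p = 0.207). The call was lost without Tb-DOX replicate 1, 2 or 5 (adjusted p = 0.058 to 0.0779).

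Eno1, the widely expressed enolase, rose by 0.35 ± 0.14 in DOX against Control (adjusted p = 0.0445), a call that 11 of the 21 leave-one-out fits did not keep (adjusted p = 0.051 to 0.0992), among them those without Control replicate 1, 2, 4 or 5, DOX replicate 1, 3, 4 or 5 and Tb-DOX replicate 1, 2 or 5. Gapdh, the dehydrogenase that the study used as its qPCR reference gene, was at 13.24, 14.82, 15.76, 14.09 and 14.46 FPKM in Control, 12.96, 14.02, 16.96, 18.56 and 19.74 in DOX, 12.72 to 16.78 with a median of 14.41 in Tb, and 18.99, 17.13, 18.4, 16.6 and 19.31 in Tb-DOX. The doxorubicin groups were higher on average, with ranges that touched those of the saline groups. Gapdh rose by 0.32 ± 0.11 without a tumor (adjusted p = 0.0275) and was at 0.30 ± 0.11 with one (adjusted p = 0.108). The first call was lost without Control replicate 1 or DOX replicate 4 or 5 (0.25 to 0.30, adjusted p = 0.061 to 0.0796) and with library totals only (0.18, adjusted p = 0.194).

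Aldoa, Tpi1, Pgk1, Pgam1, Pgam2 and Pkm did not pass in any of the 5 comparisons, with fitted changes between -0.34 and 0.48. Of these, Tpi1 did not overlap between Tb-DOX (224.14 to 255.87 FPKM) and Tb (184.22 to 203.36), at 0.26 ± 0.10 (adjusted p = 0.142). Pgam2, the mutase of muscle, passed with library totals only as lower in DOX against Control (-0.49, adjusted p = 0.0209), as did Pfkm (-0.39, adjusted p = 0.0268). Gapdh, Pgam1, Eno1, Ldha, Tpi1, Aldoa and Pgk1 have near-identical copies in the table, whose summed mean count was 252.3 for the copy of Eno1 against 1130.7 for Eno1 itself and 0 to 25.48 for the others, so their levels carry the uncertainty of how shared reads were counted.

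Lactate dehydrogenase interconverts pyruvate and lactate, and its heart form rose with doxorubicin in both states. Ldhb (chromosome 6, 142435975 to 142453683, minus strand, GRCm39) was at 772.35, 785.17, 1006.27, 740.01 and 762.05 FPKM in Control and at 913.99, 1023.73, 1001.59, 1033.17 and 1020.39 in DOX. Control replicate 3 lay within the range of DOX and the others lay below it, and Ldhb rose by 0.44 ± 0.08 (adjusted p = 0.000326). In Tb it was 749.41 at the lowest, 782.68 at the median and 830.23 at the highest, and in Tb-DOX 986.84, 1039.61, 1005.59, 959.08 and 994.52. The groups did not overlap, and the rise was 0.34 ± 0.08 (adjusted p = 0.017), or 0.32 without Tb-DOX replicate 5, where it did not pass (adjusted p = 0.0523). The interaction was -0.11 ± 0.11 (adjusted p = 0.557).

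Ldha, the muscle form, did not pass in either comparison, at -0.20 ± 0.15 and -0.30 ± 0.14, but its share of the pair was lower in every doxorubicin library. By FPKM, Ldha made up 16.15%, 15.04%, 15.43%, 16.62% and 16.17% of the lactate dehydrogenase RNA in Control and 11.66%, 10.42%, 7.417%, 10.73% and 13.16% in DOX. It made up 18.67% to 23.76% in Tb, with a median of 19.99%, and 14.9%, 13.38%, 13.64%, 18.52% and 12.96% in Tb-DOX. All DOX libraries were below all Control libraries, all Tb-DOX libraries below all Tb libraries, and all Tb libraries above all Control libraries. The mean share was 5.206 percentage points lower in DOX than in Control, 6.246 points lower in Tb-DOX than in Tb, and 5.043 points higher in Tb than in Control. As a ratio within a library, the share did not depend on the scaling, and it was not tested.

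**Figure D3:**
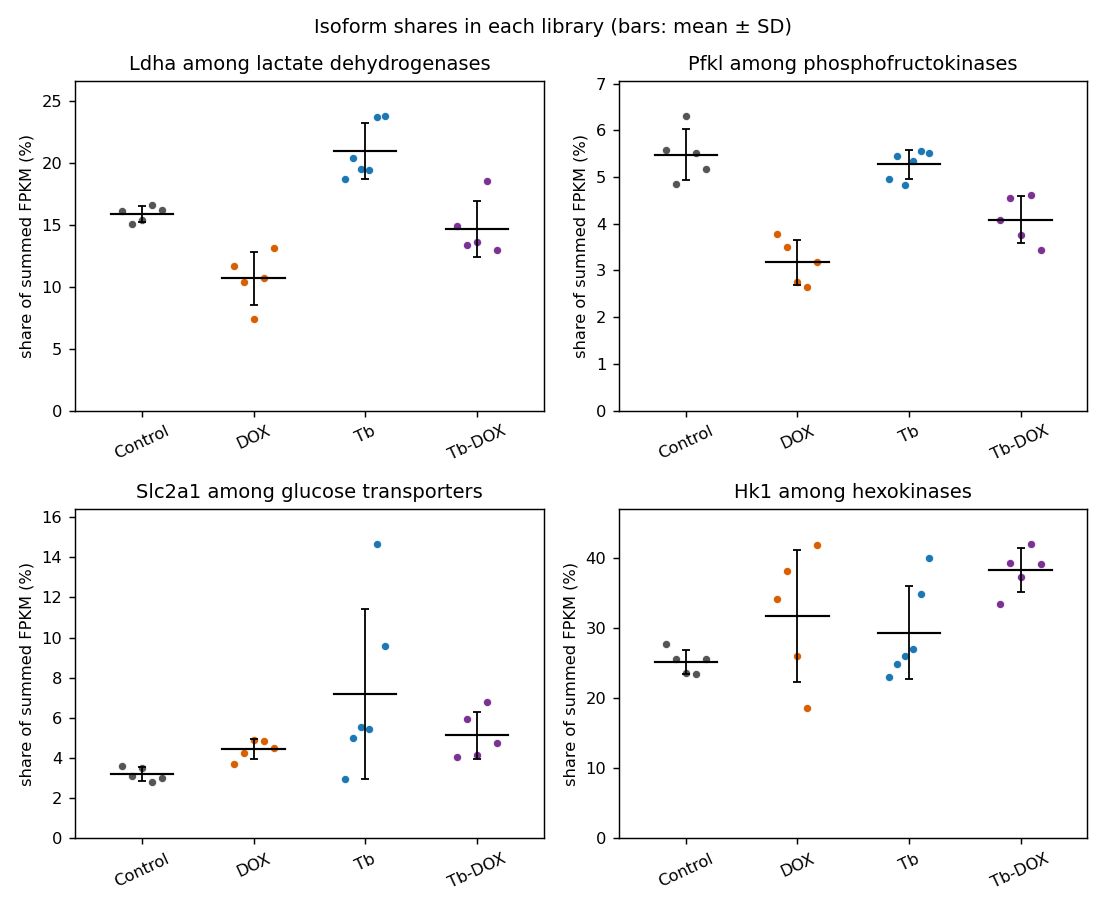
Share of an isoform in the summed FPKM of its family, in percent, 1 point per library, with group means and SDs. The Ldha share lies at 15.04% to 16.62% in Control and at 7.417% to 13.16% in DOX, and the Pfkl share is lower in each doxorubicin group than in its saline group.

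Lactate itself crosses the membrane through monocarboxylate transporters. Slc16a1 (MCT1), the form typical of heart, held 95.96% to 99.77% of the pair and changed by 0.27 ± 0.13 in DOX against Control (adjusted p = 0.113). Slc16a3 (MCT4), a form of glycolytic cells, stayed at 0.18 to 0.4 FPKM in both groups without a tumor.

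Pyruvate dehydrogenase feeds pyruvate into the citric acid cycle, and its kinases switch it off. Pdha1, the catalytic alpha subunit, rose by 0.31 ± 0.08 in DOX against Control (adjusted p = 0.00587), from 313.88 to 375.81 FPKM in Control to 339.29 to 389.56 in DOX, and was at 0.10 ± 0.08 in Tb-DOX against Tb (adjusted p = 0.535). Pdhb, the beta subunit, and Dlat, the acetyltransferase, did not pass in any comparison, with values of 0.20 ± 0.11 and -0.10 ± 0.14 in DOX against Control. Pdk2, a kinase of the complex, rose by 0.31 ± 0.09 in DOX against Control (adjusted p = 0.00836) and was at 0.22 ± 0.08 in Tb-DOX against Tb (adjusted p = 0.121). Neither Pdha1 (0.17, adjusted p = 0.0624) nor Pdk2 (0.17, adjusted p = 0.202) passed with library totals only. Pdp1, the phosphatase that reactivates the complex, passed in no comparison.

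Pdk1, a kinase induced by hypoxia, fell with doxorubicin in the tumor-bearing hearts. It was at 35.57 to 37.94 FPKM in Control, 31.78, 32.85, 31.82, 36.08 and 33.01 in DOX, 39.25 to 43.75 with a median of 41.04 in Tb, and 32.11, 31.89, 36.34, 32.33 and 32.25 in Tb-DOX. No Tb-DOX library reached the lowest Tb library, and all Tb libraries lay above all Control libraries. Pdk1 fell by 0.33 on the log2 scale in Tb-DOX against Tb (SE 0.08, adjusted p = 0.0179) and changed by -0.01 ± 0.08 in DOX against Control (adjusted p = 0.944), where library totals only gave -0.15 (adjusted p = 0.079). Without Tb-DOX replicate 4 the change in Tb-DOX against Tb was -0.28 and did not pass (adjusted p = 0.055). The interaction was -0.32 ± 0.11 and did not pass (adjusted p = 0.0675), but did with DESeq2 (-0.34, adjusted p = 0.0293) and with sample weights in voom (-0.27, adjusted p = 0.0411). Pdk4, the kinase induced by fasting and fatty acids and not itself a member, was listed at 70.03 to 499.47 FPKM in Tb and 27.13 to 46.82 in Tb-DOX, a change of -2.95 ± 0.51 (adjusted p = 0.00277), and at -0.88 in DOX against Control without passing (adjusted p = 0.166). Leaving out 1 library moved the latter between -0.52 and -1.49, and it passed without DOX replicate 5 (-1.49, adjusted p = 0.0165) and with sample weights in voom (-1.30, adjusted p = 0.0237). Of the summed FPKM of the 4 kinases, Pdk2 made up 13.9% to 41.22% in Tb and 51.85% to 58.54% in Tb-DOX.

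Of the 4 glycogen members 1 rose and 1 fell in DOX against Control, where 36.2% of all genes passed. Gyg, glycogenin, which primes new glycogen, was at 68.04, 65.06, 60.69, 66.28 and 69.65 FPKM in Control and at 70.83, 76.49, 81.4, 86.55 and 80.73 in DOX. The groups did not overlap, and Gyg rose by 0.40 ± 0.08 (adjusted p = 0.000588). Pygb, the brain form of glycogen phosphorylase, which releases glucose 1-phosphate, was at 176.71, 169.44, 152.76, 159.03 and 171.94 in Control and at 101.4, 116.43, 115.35, 108.45 and 128.25 in DOX, again without overlap, and fell by 0.41 on the log2 scale (SE 0.12, adjusted p = 0.00893). In the tumor-bearing hearts Gyg was at 71.35 to 79.22 FPKM in Tb (median 74.07) and 76.01 to 83.25 in Tb-DOX, and Pygb at 115.67 to 201.67 (median 180.785) and 132.22 to 195.09. Both pairs of ranges overlapped, with changes of 0.08 ± 0.08 (adjusted p = 0.584) and -0.15 ± 0.11 (adjusted p = 0.466), of which the second passed with sample weights in voom (-0.26, adjusted p = 0.0194), and neither interaction passed (Gyg -0.32 ± 0.11, adjusted p = 0.0665; Pygb 0.25 ± 0.16, adjusted p = 0.294), though that of Gyg did without DOX replicate 1 (-0.35, adjusted p = 0.0478) and with DESeq2 (-0.33, adjusted p = 0.0291). Pygm, the muscle phosphorylase and the more abundant form, and Gys1, the muscle glycogen synthase, passed in no comparison.

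The oxidative arm of the pentose phosphate pathway did not move with doxorubicin past the test: G6pdx, Pgls and Pgd changed by 0.06 ± 0.35, -0.46 ± 0.19 and -0.01 ± 0.16 in DOX against Control. In the non-oxidative arm all 4 members had values below 0 there, and 2 fell, where 18.2% of all genes did. Rpia, ribose 5-phosphate isomerase (chromosome 6, 70742704 to 70769216, minus strand, GRCm39), was at 2.36, 1.69, 2.97, 2.3 and 2.22 FPKM in Control and at 1.17, 0.84, 1.44, 0.51 and 0.96 in DOX. Rpe, ribulose-phosphate epimerase, was at 4.37, 4.09, 4.82, 4.67 and 4.7 in Control and at 2.89, 3.18, 3.61, 2.16 and 3.44 in DOX. Neither overlapped between the groups, and Rpia fell by 1.10 (SE 0.23, adjusted p = 0.000821) and Rpe by 0.43 on the log2 scale (-0.43, SE 0.11, adjusted p = 0.0051). DOX replicate 4, the library with the T cell marker sum of 67.12 FPKM, was the lowest for both, and the part of these cells was not tested. Without it and the other 2 libraries that stood apart the values were -0.87 and -0.35, still past the test (adjusted p = 0.00173 and 0.0139).

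In Tb, Rpia was at 1.32 to 3.44 FPKM with a median of 2.415, and in Tb-DOX at 1.89, 1.64, 1.89, 1.92 and 2.24. Rpe was at 4.63 to 5.8 with a median of 5.22, and in Tb-DOX at 4.03, 4.14, 4.23, 5.68 and 4.17. The ranges overlapped, and the changes of -0.30 ± 0.21 and -0.25 ± 0.11 did not pass (adjusted p = 0.45 and 0.185). That of Rpe did pass with sample weights in voom (-0.317, adjusted p = 0.0112). Neither interaction passed (adjusted p = 0.0921 for Rpia and 0.444 for Rpe), though that of Rpia did without Tb replicate 1 (0.95, adjusted p = 0.0368). Transketolase (Tkt) and transaldolase (Taldo1), which move sugar fragments between chains, were at -0.46 ± 0.21 (adjusted p = 0.0813) and -0.27 ± 0.12 (adjusted p = 0.0963) in DOX against Control. With library totals only both passed as lower, at -0.60 (adjusted p = 0.0419) and -0.41 (adjusted p = 0.0315), and so did Pgls (-0.63, adjusted p = 0.0189).

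The tumor alone raised members of the pentose phosphate pathway, of lactate transport, and of the control of glycolysis and pyruvate dehydrogenase. Of the glucose transporters it raised Slc2a1, while Slc2a4, by far the more abundant, was lower without passing, as given below. In Tb against Control, 8 of 42 members passed with edgeR, all higher, or 19% of those tested, beside 6.28% of all genes tested (5.0% higher and 1.29% lower). Slc16a3, G6pdx, Pfkfb3 and Pdk3 also passed a log2 change of at least 1, met by 3.6% of all genes. Pgd, Tkt, Slc2a1 and Taldo1 were the others. None of the 9 lower glycolytic members tested was among them with edgeR, and 1 had an unadjusted p under 0.05. Without the 3 libraries that stood apart 7 passed, and Slc2a1 was lost. In Tb-DOX against DOX 8 members passed, 7 higher and 1 lower, beside 17.5% of all genes (9.52% higher and 7.93% lower). G6pdx, Slc16a3 and Tkt also passed a log2 change of at least 1, as 5.62% of all genes did. All 4 members of the non-oxidative arm and 2 of the 3 of the oxidative arm rose, Slc16a3 rose and Slc2a4 fell. With library totals only, 11 members passed, all higher, Slc2a4 did not, and the share of higher calls over all genes went from 54.5% to 88.7%. This comparison shares its libraries with those above, so that low DOX values of Rpia and Rpe enter both.

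**Figure D4:**
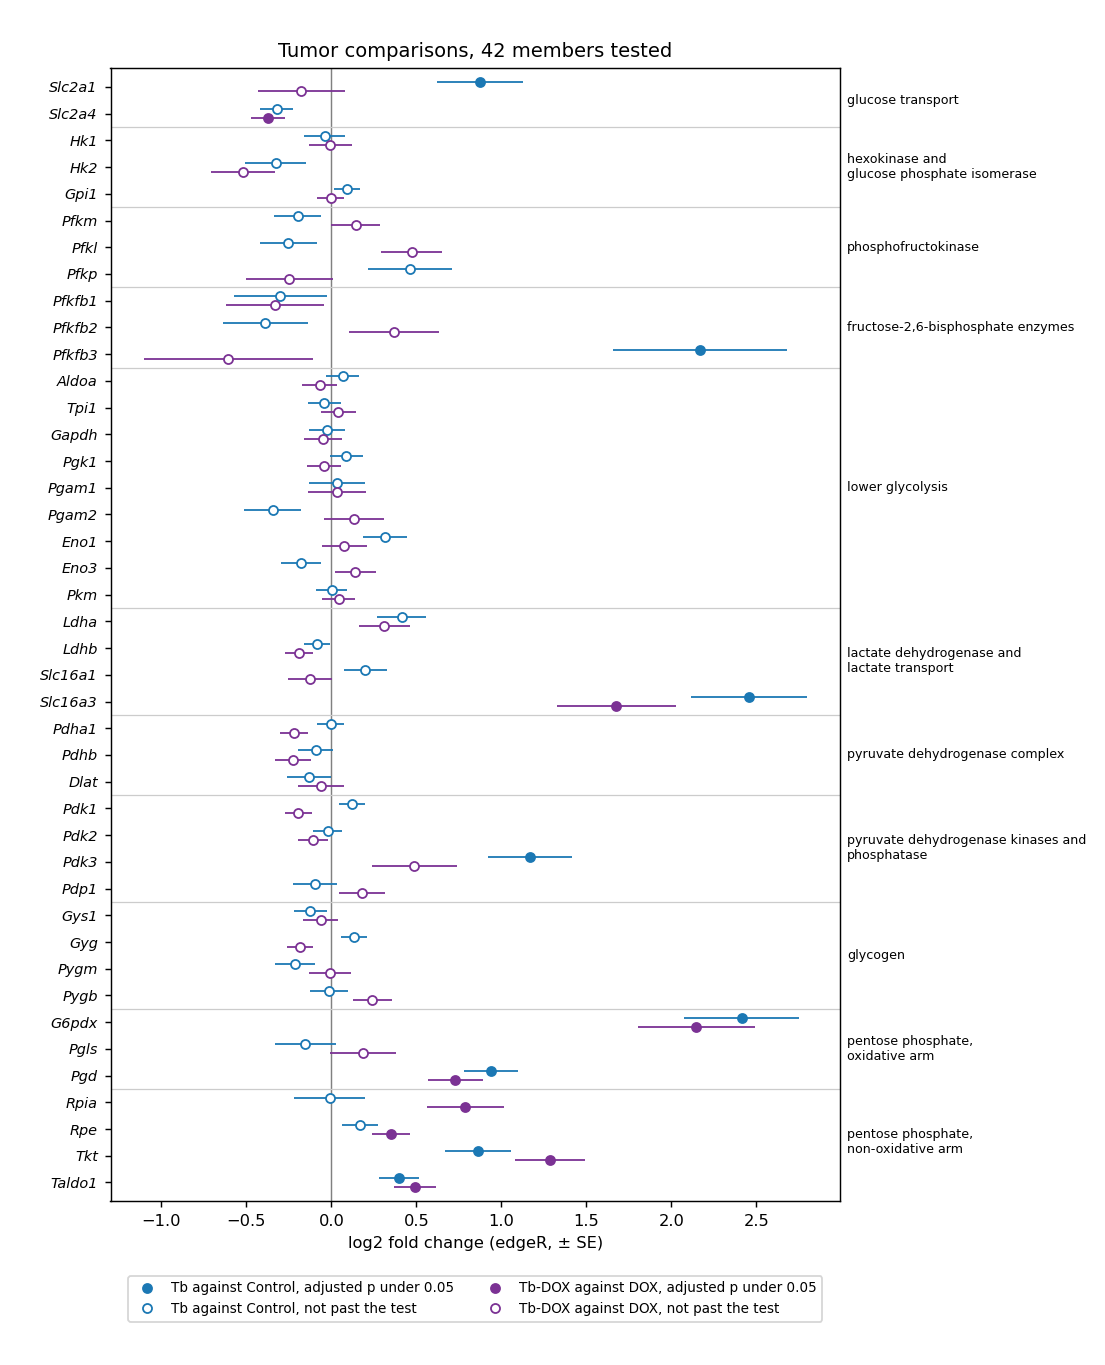
Log2 fold change (edgeR, ± SE) of the 42 members tested, by role, for Tb against Control and Tb-DOX against DOX, with filled points for adjusted p under 0.05. G6pdx and Slc16a3 lie above 1.6 in both comparisons, and the lower glycolytic genes have open points only.

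G6pdx, glucose 6-phosphate dehydrogenase, the first and rate-setting enzyme of the pathway (chromosome X, 73453089 to 73472800, minus strand, GRCm39), was at 2.56, 2.24, 2.06, 2.25 and 2.15 FPKM in Control and at 2.56, 1.69, 4.15, 0.96 and 1.53 in DOX. It was at 4.9 to 22.65 with a median of 11.41 in Tb, and at 12.36, 9.88, 9.7, 17.28 and 5.66 in Tb-DOX. Every tumor-bearing library lay above every library without a tumor. G6pdx rose by 2.41 ± 0.34 in Tb against Control (5.33-fold, adjusted p = 4.09e-05) and by 2.15 ± 0.34 in Tb-DOX against DOX (adjusted p = 0.000188). Pgd, the next NADPH-producing enzyme, was at 3.37 to 4.89 FPKM in Control, 3.05 to 4.23 in DOX, 4.81 to 11.98 with a median of 7.86 in Tb and 4.58 to 9.94 in Tb-DOX, and rose by 0.94 ± 0.16 (adjusted p = 0.000384) and 0.73 ± 0.16 (adjusted p = 0.00398). Tkt was at 2.3 to 3.79 FPKM in Control, 1.5 to 2.87 in DOX, 3.49 to 8.52 with a median of 5.085 in Tb and 3.75 to 7 in Tb-DOX, and rose by 0.86 ± 0.20 (adjusted p = 0.00787) and 1.29 ± 0.21 (adjusted p = 0.000189).

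Taldo1 rose by 0.40 ± 0.12 in Tb against Control (adjusted p = 0.0449), a call that 12 of the 21 leave-one-out fits did not keep (adjusted p = 0.0501 to 0.125, without Control replicate 1, 2, 4 or 5, DOX replicate 2, Tb replicate 3, 4, 5 or 6, or Tb-DOX replicate 1, 2 or 3), and by 0.49 ± 0.12 in Tb-DOX against DOX (adjusted p = 0.00878). In the latter comparison Rpia and Rpe rose by 0.79 ± 0.23 (adjusted p = 0.0192) and 0.35 ± 0.11 (adjusted p = 0.0352). The call on Rpia was lost without DOX replicate 4 (0.63, adjusted p = 0.0542), and that on Rpe without DOX replicate 1 or 4 or Tb-DOX replicate 3, 4 or 5 (adjusted p = 0.0531 to 0.107), and without the 3 libraries that stood apart (0.26, adjusted p = 0.0681). In Tb against Control they were at -0.01 ± 0.21 and 0.17 ± 0.11.

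Slc16a3 (chromosome 11, 120839306 to 120851694, plus strand, GRCm39) was at 0.4, 0.35, 0.18, 0.27 and 0.33 FPKM in Control, 0.24, 0.27, 0.29, 0.24 and 0.3 in DOX, 0.67 to 2.85 with a median of 1.525 in Tb, and 0.86, 1.18, 1.1, 1.39 and 0.39 in Tb-DOX. Both tumor-bearing groups lay above the groups without a tumor, except that 1 Tb-DOX library was below the highest Control library. It rose by 2.46 ± 0.34 in Tb against Control (5.49-fold, adjusted p = 3.54e-05) and by 1.68 ± 0.35 in Tb-DOX against DOX (adjusted p = 0.00237). Pdk3 was at 0.59 to 0.83 FPKM in Control and 0.9 to 2.48 with a median of 1.57 in Tb, and rose by 1.17 ± 0.25 (adjusted p = 0.00407). In Tb-DOX against DOX it was at 0.49 ± 0.25 (adjusted p = 0.182). Of the members, 12 overlap a gene on the opposite strand, and the strand setting of the counting is not given in the sources used here, so reads of the partners cannot be told apart. The partner had the higher mean count for G6pdx (Ikbkg, 754.6 against 355.2), Slc16a3 (Csnk1d, 967.5 against 73.71) and Rpe (Kansl1l, 513.8 against 211.6), and the lower for the others, among them Pfkp (Pitrm1, 816 against 1287).

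Pfkfb3 rose by 2.17 ± 0.51 in Tb against Control (adjusted p = 0.0109). The size rested partly on Tb replicate 5, without which it was 1.24 (adjusted p = 0.02), and it did not pass with limma on log2(FPKM + 1) (1.2, adjusted p = 0.067). Slc2a1 rose by 0.87 ± 0.25 (adjusted p = 0.0406). Of the 21 leave-one-out fits 7 did not keep this call (adjusted p = 0.0613 to 0.107), those without any single Control replicate and without Tb replicate 5 or 6. In Tb-DOX against DOX these 2 members were at -0.61 ± 0.50 and -0.18 ± 0.26. Slc2a4 fell by 0.37 on the log2 scale in Tb-DOX against DOX (SE 0.10, adjusted p = 0.0147; -0.30 and adjusted p = 0.0515 without DOX replicate 2). In Tb against Control it was at -0.32 ± 0.10 with groups that did not overlap, 49.31 to 69.74 against 72.34 to 88.94 FPKM (adjusted p = 0.0513). This lower level passed with DESeq2 (-0.32, adjusted p = 0.0275), with sample weights in voom (-0.26, adjusted p = 0.0223), in a fit of these 2 groups alone (-0.30, adjusted p = 0.0462), and without DOX replicate 2 or 5, Tb replicate 1 or Tb-DOX replicate 4 (adjusted p = 0.0265 to 0.0476).

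Neutrophil and macrophage markers moved with these results. All 10 neutrophil markers rose in Tb against Control and in Tb-DOX against DOX, 6 of 10 rose in DOX against Control, and none of the 10 passed in Tb-DOX against Tb with edgeR (1 at an unadjusted p under 0.05, and 0 with DESeq2). No marker of the list was at 0 in all libraries. Among the tumor-bearing libraries, the 1 with the lowest marker sum in Tb, 835.1, had the lowest G6pdx (4.9), Pgd (4.81), Tkt (3.49) and Slc16a3 (0.67) of its group, and the 1 with the lowest sum in Tb-DOX, 1249, likewise had the lowest of its group (5.66, 4.58, 3.75 and 0.39). The 2 Tb libraries with the highest sums, 7344 and 7812, had the highest G6pdx and Tkt, whereas the Pgd of the first of them, 7.64, was below that of Tb replicates 3 and 4 (8.16 and 8.08), whose sums were 3269 and 3217. Within the groups without a tumor the sum stayed at or below 94.23, in DOX replicate 3, which had the highest G6pdx of those groups at 4.15, while DOX replicate 4, with the next highest sum of 47.62, had the lowest at 0.96. Macrophage markers moved as well: 5 of 10 rose in Tb-DOX against DOX and 1 in Tb against Control. Their summed level was 136.7 to 166.1 FPKM in Control against 187.6 to 264.6 in Tb, and 57.83 to 97.87 in DOX against 114.7 to 307.1 in Tb-DOX, without overlap in either pair. Tb-DOX replicate 5 had the lowest macrophage sum of its group and replicate 4 the highest, and the same 2 libraries had the lowest and the highest G6pdx, Pgd and Tkt. In Tb, replicate 1 was lowest for the sum and for these genes, and replicate 6, highest for these genes, had a sum of 262. Tb replicate 3 had the highest sum, 264.6, with G6pdx at 11.44, Pgd at 8.16 and Tkt at 5.35. Tb replicate 5, with a sum of 203, was at 15.97, 7.64 and 7.54. The part of these cells in the result was not tested. By-library values of these genes were described after their levels were seen.

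**Figure D5:**
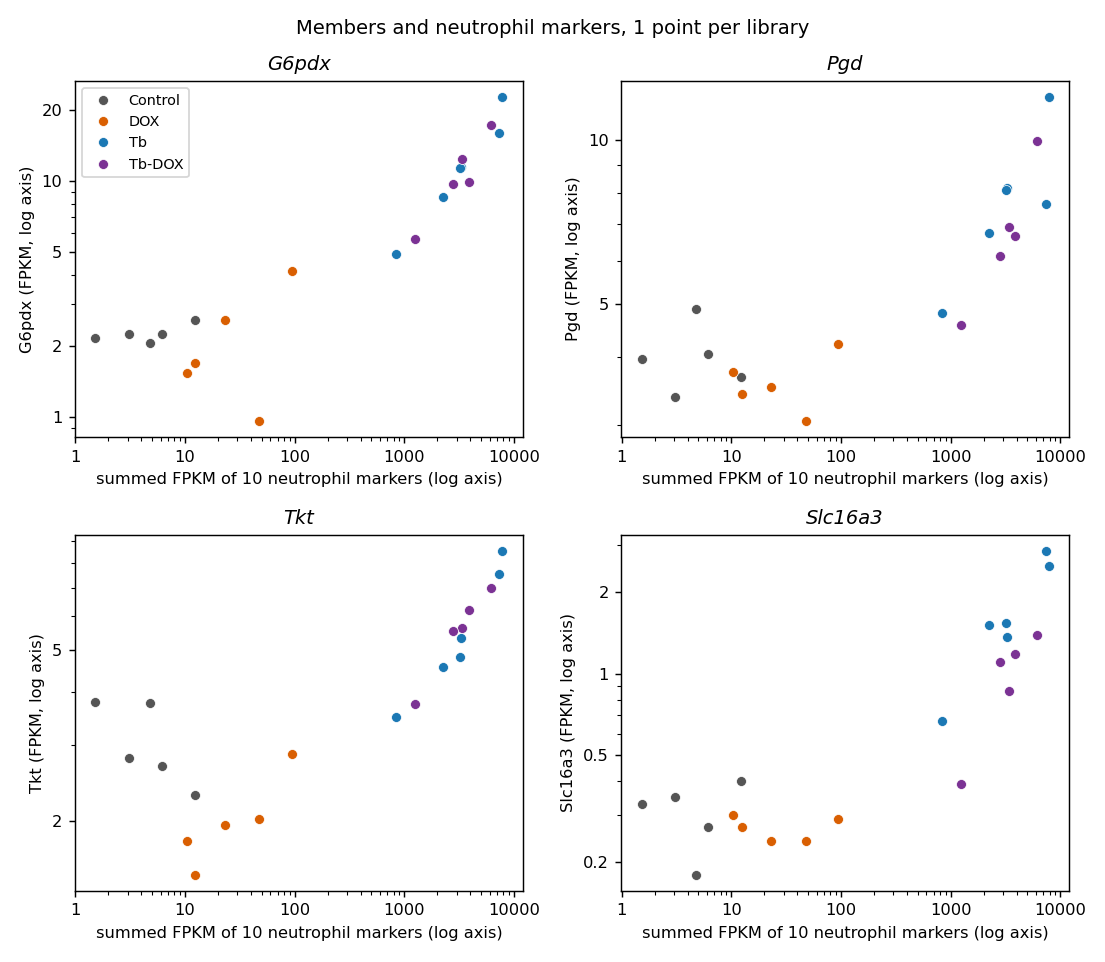
FPKM of G6pdx, Pgd, Tkt and Slc16a3 against the summed FPKM of 10 neutrophil markers, both on log axes, 1 point for each of the 21 libraries. The 11 tumor-bearing libraries have sums of 835.1 or more and the others 94.23 or less.

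Other genes of glucose use were counted over 5 lists. In DOX against Control 42 of the 94 tested passed, 25 higher and 17 lower (44.7%), beside 36.2% of all genes tested. The lists hold 9 to 31 genes tested, and differences between them were not tested. Of other glycogen genes 14 of 19 passed, 6 higher and 8 lower. Phka1, the muscle alpha subunit of the phosphorylase kinase that activates glycogen phosphorylase, rose by 1.45 ± 0.24 (adjusted p = 0.00012), and Ppp1r3b and Ppp1r3d, which bring protein phosphatase 1 to glycogen, were at -0.90 ± 0.24 and -0.82 ± 0.20 (adjusted p = 0.00603 and 0.00354). Other pentose phosphate and NADPH genes passed in 8 of 14, with Nnt, the mitochondrial transhydrogenase that makes NADPH, at 1.58 ± 0.18 (adjusted p = 3.31e-06). Other glycolysis genes passed in 6 of 21, with Galm, the mutarotase of galactose and glucose, at -1.20 ± 0.26 (adjusted p = 0.00112), and other pyruvate genes in 1 of 9, Mpc1, a subunit of the mitochondrial pyruvate carrier, at 0.38 ± 0.07 (adjusted p = 0.00057). Regulators passed in 13 of 31, with Irs1, an insulin receptor substrate, at 1.92 ± 0.23 (adjusted p = 8.21e-06). In Tb-DOX against Tb 7 of the 94 passed, 3 higher and 4 lower (7.45%), beside 4.72% of all genes, among them Irs1 (0.80 ± 0.22, adjusted p = 0.0383), Nnt (0.72 ± 0.17, adjusted p = 0.017) and Egln3, an oxygen-sensing prolyl hydroxylase (-1.04 ± 0.17, adjusted p = 0.00188). The call on Irs1 was lost without any of Tb replicates 1 to 4 or Tb-DOX replicate 2 or 5 (0.52 without Tb-DOX replicate 2, adjusted p = 0.147), under both limma fits (adjusted p = 0.0692 and 0.0807) and in a fit of these 2 groups alone (adjusted p = 0.0969). That on Nnt was lost without Tb-DOX replicate 3 (0.55, adjusted p = 0.0603).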

How the data were processed

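Heart RNA was sequenced in 21 libraries (Control 5, DOX 5, Tb 6, Tb-DOX 5), grouped by the labels. The table deposited by the authors held raw read counts and FPKM per gene. The submitters' processing notes name cutadapt, FastQC, HISAT2, HTSeq 0.6.1, DESeq2 1.34.0 and GRCm39, and the setting for strand and shared reads is not given in the sources used here. The FPKM deposited by the authors matched the count scaled to gene length and to library total in 100% of values, within 0.01 FPKM plus 0.1%. Counts were fitted with edgeR 4.0.16 in R 4.3.3: quasi-likelihood, TMM scaling, all 4 groups in 1 fit, genes with a mean of at least 0.5 FPKM, Benjamini-Hochberg adjustment over 13990 genes, two-sided tests. Isoform shares were computed from FPKM. Alternatives used DESeq2 1.42.0, limma 3.58.1 on log2(FPKM + 0.1) and log2(FPKM + 1), other scalings and filters, a replicate block and fits without each library in turn. The replicate block left out Tb replicate 6. The members and lists were chosen with earlier results of these data known. Members past the test were named, with values by library for the largest changes of each doxorubicin comparison, the most abundant member of each role and the qPCR reference gene, and other pathway genes by size within each list. Taldo1 and Slc2a1 in Tb against Control, the neutrophil comparison, and Hk3, Slc2a3, Pfkfb4, Adpgk, Pygl and Galm were chosen after their values were seen. The values of 1 gene of the other lists are not reported here. Every pair of replicates of a group differed by more than sampling noise, with a chi-square per degree of freedom of at least 5.951.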

Additional observations from a re-analysis of the deposited data

Results flagged for a closer look

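Of 48 groups of libraries, 12 members in 4 groups each, 8 had a library whose gap to its nearest neighbour was large for the range of the group, where chance gives about 1 in 20. Each value below is that gap as a fraction of the range. In Control, replicate 3 was the highest for Eno3 (0.946), Ldhb (0.83) and Pfkl (0.816), and the same library had the highest cardiomyocyte marker sum, 29050 against 19470 to 20260 in the other Control libraries. In DOX, replicate 1 was the lowest for Ldhb (0.735) and replicate 4 the highest for Pdk1 (0.714). In Tb, replicate 5 was the highest for Pfkfb3 (0.787). In Tb-DOX, replicate 3 was the highest for Pdk1 (0.901) and replicate 4 for Rpe (0.879).

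The response of Pfkfb3 to doxorubicin differed between the tumor states: Tb-DOX against Tb minus DOX against Control was -2.773 on the log2 scale (edgeR, adjusted p = 0.0244). It was -1.85 without Tb replicate 5 (adjusted p = 0.0129). In the interaction 5 of 10 neutrophil markers, the 1 T cell marker tested and 1 of 5 erythroid markers were lower. Higher were 3 of 8 fibroblast markers, 1 of 8 endothelial markers and the 1 germ cell marker tested. The sum of neutrophil markers was 7344 in Tb replicate 5, with Pfkfb3 at 17.9 FPKM, and 7812 in Tb replicate 6, with Pfkfb3 at 5.28 FPKM. The T cell marker sum of Tb replicate 5 was 11.53, against 0.97 to 1.93 in the other Tb libraries. In DOX replicate 4, which had the second highest Pfkfb3 of its group (6.93 FPKM), the T cell sum was 67.12, against 1.24 to 3.71 in the others. The part of these cells in the result was not tested.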

How the results depend on the processing

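No fold change past the test changed sign under the alternatives run, but the direction of the counts depended on them. In DOX against Control 11 members were higher and 4 lower, against 4 and 9 with library totals only, 5 and 9 with limma on log2(FPKM + 0.1), and 4 and 8 on log2(FPKM + 1). The 1 member of the interaction, Pfkfb3, was lower, whereas Pfkl, higher, was the 1 member under both limma fits and with a filter at a mean of 5 FPKM, which removed Pfkfb3. Of 15, 8, 8, 4 and 1 members past the test in DOX against Control, Tb against Control, Tb-DOX against DOX, Tb-DOX against Tb and the interaction, a log2 change of at least 1 left 3, 4, 3, 0 and 1, and an adjusted p under 0.01 left 11, 5, 5, 0 and 0 (edgeR, with 13 and 7 members at an unadjusted p under 0.05 in the last 2 comparisons). DESeq2 gave 5 for the interaction, and a mean FPKM of at least 5 gave 3 for Tb against Control and 5 for Tb-DOX against DOX. Sample weights in voom gave 23, 14, 13 and 4 for DOX against Control, Tb-DOX against DOX, Tb-DOX against Tb and the interaction. With no filter on low values Tb-DOX against Tb kept 1, with limma on log2(FPKM + 1) Tb against Control kept 5, and with library totals only the interaction had 2. Under library totals only, 7 of the 11 rises in DOX against Control (Slc2a4, Hk1, Gpi1, Gapdh, Eno1, Pdha1 and Pdk2) did not pass. Neither did Taldo1 in Tb against Control, Slc2a4 in Tb-DOX against DOX or Gpi1 in Tb-DOX against Tb. With limma on log2(FPKM + 1), calls were lost on Slc2a1, Slc2a4, Hk1, Gpi1, Gapdh, Eno1 and Pdk2 in DOX against Control, Slc2a1, Pfkfb3 and Taldo1 in Tb against Control, Slc2a4 in Tb-DOX against DOX, Gpi1 in Tb-DOX against Tb and Pfkfb3 in the interaction, and on log2(FPKM + 0.1) the same except Slc2a1 in DOX and Pfkfb3 in Tb against Control. No filter lost Eno1 and Gapdh in DOX, Taldo1 in Tb, Rpe in Tb-DOX against DOX, and Gpi1, Ldhb and Pdk1 in Tb-DOX against Tb. A fit of the compared groups alone lost Gpi1 in Tb-DOX against Tb, Rpe in Tb-DOX against DOX, and Slc2a1 and Taldo1 in Tb. Voom weights lost Gapdh in DOX and Slc2a1 in Tb, a filter at 5 FPKM Eno1 in DOX, and median-ratio scaling Gpi1 in Tb-DOX against Tb. Under limma on log2(FPKM + 0.1) the share of higher calls over all genes was 27.7% in DOX against Control, 90.1% in Tb-DOX against DOX and 83.4% in the interaction. Without Control replicate 3, DOX replicate 4 and Tb replicate 5, an alternative chosen after seeing the data, Tb-DOX against Tb had 7 and the interaction 2.

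Leaving out 1 library at a time gave 13 to 18 members in DOX against Control, 6 to 10 in Tb against Control, 6 to 10 in Tb-DOX against DOX, 1 to 6 in Tb-DOX against Tb (1 without Tb-DOX replicate 5, 2 without Tb-DOX replicate 1 or 2) and 1 to 3 in the interaction. In DOX against Control, members that had not passed did so without Control replicate 3 (Aldoa, Tpi1), Control replicate 2 or DOX replicate 2 (Pgls), DOX replicate 3 (Gys1), DOX replicate 4 (Pfkfb2, Slc16a1), DOX replicate 5 (Taldo1) or Tb replicate 5 (Pdk3, Pfkp, Tkt). Same-numbered libraries did not deviate together (correlation of deviations -0.219 to 0.194, over 0.1 in 3 of 30 pairs), so the numbers do not pair the samples. A replicate block, fitted without Tb replicate 6, gave 15, 5, 7, 4 and 0 members in the order first given (7 at an unadjusted p under 0.05 in the interaction). Lost were the calls on Eno3, on Rpe in Tb-DOX against DOX and on the interaction of Phka1. So were those on Pfkfb3, Slc2a1 and Taldo1 in Tb against Control. Of these, Slc2a1 and Taldo1 were also lost without Tb replicate 6 alone (edgeR, adjusted p = 0.101 and 0.0992). The cause of these moves was not tested. Depth limits Aldoc, at 0 to 8 counts, Slc16a3, at 15 to 269 counts with a mean of 73.71, and Pdk3, at 22 to 113 counts.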

Other observations

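Other genes of glucose use also rose with the tumor. Hk3, the hexokinase of blood cells, was at 0.07 to 0.3 FPKM in the groups without a tumor and at 0.57 to 5.71 in those with one, and rose by 3.95 ± 0.48 in Tb against Control (edgeR, adjusted p = 7.52e-06) and by 3.43 ± 0.49 in Tb-DOX against DOX. Slc2a3, the high-affinity transporter GLUT3, was at 0.27 to 0.43 and at 1.17 to 8.04 FPKM, and rose by 3.54 ± 0.42 and 2.97 ± 0.43. Pfkfb4, a further enzyme of fructose 2,6-bisphosphate, was at 0.35 to 0.62 and at 1.2 to 3.75 FPKM, and rose by 2.27 ± 0.27 in both comparisons as rounded, with an SE of 0.28 in the second. Adpgk, a sugar kinase that uses ADP, rose by 2.00 ± 0.26 and 1.25 ± 0.26, and Pygl, the liver glycogen phosphorylase, by 1.47 ± 0.26 and 1.36 ± 0.26. The tumor-bearing libraries of Hk3, Slc2a3 and Pfkfb4 did not overlap with the others, in the same libraries in which the neutrophil marker sum was 835.1 or more, and its part in the result was not tested. Of the 94 other genes, 10 (10.6%) passed in Tb against Control, beside 6.28% of all genes tested, and 18 (19.1%) in Tb-DOX against DOX, beside 17.5%.

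The response to doxorubicin differed with the tumor for 12 of the 94 (12.8%), 2 higher and 10 lower, beside 8.94% of all genes (3.95% higher and 5.0% lower). Txnrd1 and Nqo1, targets of the oxidative stress response, rose by 0.98 ± 0.27 and 0.91 ± 0.12 in DOX against Control, with interactions of -1.49 ± 0.37 (adjusted p = 0.022) and -0.84 ± 0.17 (adjusted p = 0.0106). Phka1 had an interaction of -1.22 ± 0.33 (adjusted p = 0.0281), which did not pass under either limma fit (-0.90 and -0.85, adjusted p = 0.0731 and 0.074) or without Control replicate 3, DOX replicate 4 and Tb replicate 5 (-1.06, adjusted p = 0.0665).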
